A study of Drosophila melanogaster with 54 samples.

Results

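Stage 6 of Drosophila embryogenesis, when the embryo begins to gastrulate, was compared with stage 5, when the blastoderm forms cells. The comparison took all embryos with these stage labels, 5 at stage 6 and 9 at stage 5, which is 14 of the 54 single embryos of the series. Each library holds the total RNA of 1 whole Drosophila melanogaster embryo after removal of ribosomal RNA. Embryos were picked by hand and staged by their morphology under a stereomicroscope, and no treatment is named. Strain, parents, sex and age in hours are not given in the sources used here, and each embryo goes by the letter in its title (B to J at stage 5; B, C, D, G and H at stage 6). The labels do not say that embryos came from separate collections, so a p-value here reflects how far the embryos of this series vary within a stage, which may be technical. For the tests of genes, that spread was estimated over all 54 embryos.

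In the syncytial fly embryo, nuclei divide without cell membranes and then line up under the surface. During stage 5, called cellularization, membrane furrows grow inward between the nuclei and produce a single sheet of cells. During stage 6 the ventral furrow folds the future mesoderm inward, the cephalic furrow forms, and the posterior midgut begins to invaginate with the pole cells, the germline precursors, on top of it. Over the same period RNA supplied by the mother is degraded, the embryo's own genome takes over, and the cells leave the rapid synchronous divisions for divisions timed by local transcription of string (stg).

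Levels are given as CPM, a gene's count per 1000000 counts of the TMM-scaled library, and changes as log2 fold changes with their standard error (SE). A gene is called when its Benjamini-Hochberg adjusted p-value in edgeR's quasi-likelihood test is under 0.05. Where a gene is said to rise or fall by a number, that number is its log2 change. Reads counted in genes ran from 3326516 to 7955337 per embryo with a median of about 3893150, so 1 CPM rests on about 4 reads in most libraries. The share of reads that lay on the strand opposite to read 1, 96.8 to 97.2%, showed all 14 libraries to be directional. The spread for the gene tests also drew on later stages, where embryos A, B, F and G of stages 13 and 15 had 50.2 to 50.5%. Those libraries were not directional, while C, D, H and I of these stages had 97.2 to 97.4%. A fit of the 14 embryos alone leaves stages 13 and 15 out. The part of this mix in the p-values was not tested. The first principal component of log2 CPM took 58.8% of the variance and separated the stages, with stage 5 embryos from -45.3 to -17.7 and stage 6 embryos from 44.1 to 57.9. Levels of Sxl, the X-counting switch gene, fell into separate ranges within each stage. In 6 of the 9 stage 5 embryos it lay between 1443 and 1963 CPM and in the other 3 between 104 and 190.2 CPM, while 2 of the 5 stage 6 embryos had 1333 and 1395 CPM and the other 3 had 282 to 344 CPM.

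**Figure D1:**
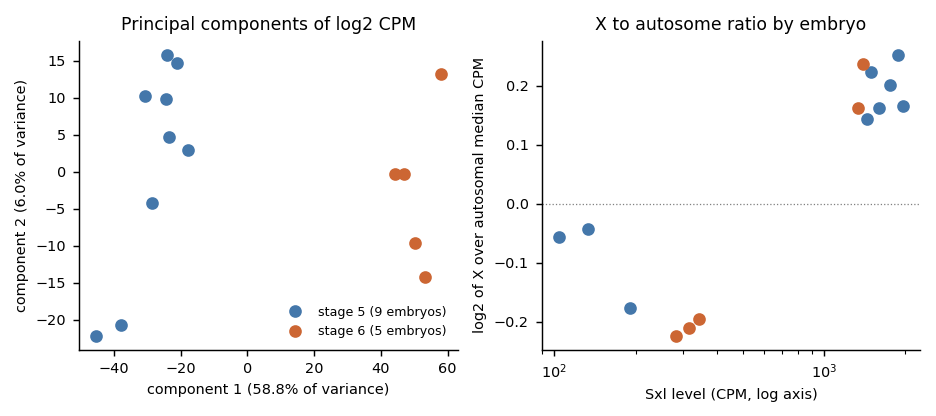
Left, each point is an embryo on the first and second principal components of log2 CPM over 9783 genes. Right, the log2 ratio of median X-linked to median autosomal CPM is plotted against the level of Sxl on a log axis; the 8 embryos with over 1000 CPM of Sxl lie above 0 and the 6 others below, in both stages.

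A pair of embryos stood apart in transcripts of the posterior pole, and these genes were singled out after their values were seen. In stage 5 embryo G, pgc and nos, RNAs held in the germ plasm and pole cells, were at 1.78 and 2.54 CPM, against 16.7 to 41.2 and 17.3 to 64.9 CPM in the other 8. The hindgut gene byn was at 38.1 CPM there against 112 to 162 CPM, the forkhead gene fkh at 32.5 against 152 to 216 CPM, and the terminal gap gene tll at 52.6 against 147 to 217 CPM. In stage 6 embryo H, byn was at 0.554 CPM against 57.0 to 184 CPM in the other 4, pgc at 0 reads, nos at 1.11 CPM, and the posterior Hox gene Abd-B at 2.49 CPM against 19 to 57.6 CPM. Stage 6 embryo B had intermediate levels, with 57.0 CPM of byn, 6.24 of pgc and 6.11 of nos. The sum over the 11 pole cell markers did not set these embryos apart, at 584 to 828.9 CPM at stage 5 and 702 to 771 CPM at stage 6. Its largest members were aub and tud. It therefore says little on pgc and nos, which reached at most 41.2 and 64.9 CPM at stage 5. In a bulk library fewer cells of a type and less RNA per cell cannot be told apart, and the part of tissue loss in these values was not tested. With embryos 5G and 6H both left out, a repeat chosen after seeing the data, 2683 genes were called higher and 1958 lower, and named posterior genes are given below with and without them.

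**Figure D2:**
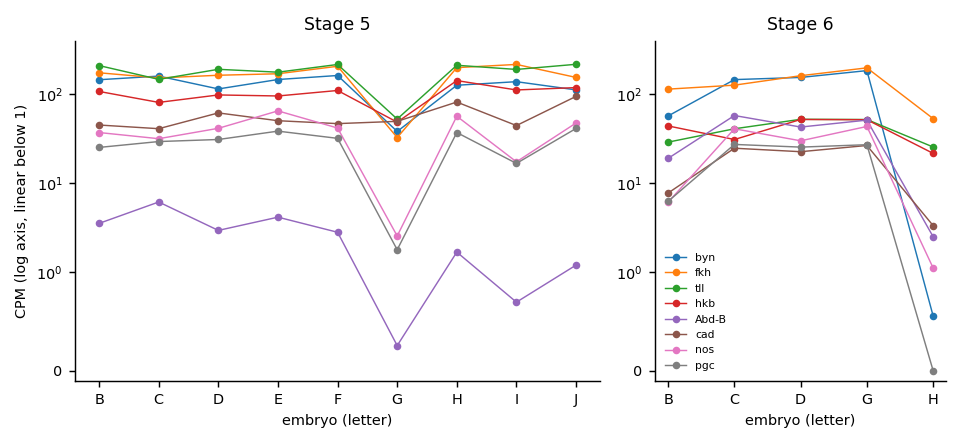
CPM (log axis, linear below 1) of 8 genes with posterior or pole cell transcripts, by embryo; lines only join the points of a gene. Stage 5 embryo G and stage 6 embryo H lie low for byn, fkh, nos, pgc and Abd-B, and stage 6 embryo B is low for byn, nos and pgc as well.

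Of 9783 genes tested, 4849 (49.6%) were called between the stages, 2742 (28%) higher and 2107 (21.5%) lower at stage 6. At least 2-fold changes were fewer, with 1127 genes (11.5%) higher and 857 (8.76%) lower, and the median log2 change of all genes was 0.04. In 1505 genes (15.4%) all stage 6 embryos lay above all stage 5 embryos, and in 1294 (13.2%) they all lay below. Genes that fell at least 2-fold were mostly already present at stage 4, the syncytial stage before. Of them 72.3% had a mean of at least 10 CPM at stage 4 and 18.2% under 1 CPM, against 58.7% and 32.8% of all genes tested. Genes that rose divided evenly, with 46.7% present at stage 4 and 45.9% under 1 CPM there. The risers present at stage 4 had a low point at stage 5, which their selection as risers partly sets. Their median level went from 60.2 CPM at stage 4 down to 14.7 at stage 5, then up to 38.3 at stage 6 and 50.3 at stage 8. For all tested genes present at stage 4, the medians at these stages were 73.6, 52.0, 50.8 and 52.5 CPM. Among genes under 1 CPM at stage 4, those without an intron made up 22.7% of the fallers, 20.3% of the risers and 19.6% of all tested, which are close to each other. Stage 5 and stage 6 values also enter the neighbouring comparisons, so stages 4 and 8 are given only as levels. The list counts that follow are to be read against the 28% higher, 21.5% lower and median of 0.04 of all genes. These genes passed a count filter over all 8 stages. In the fit of the 14 embryos alone, 2199 of 7351 tested genes were higher and 2183 lower. The share of lower genes was larger there, so a list share modestly above 21.5% says little.

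**Figure D3:**
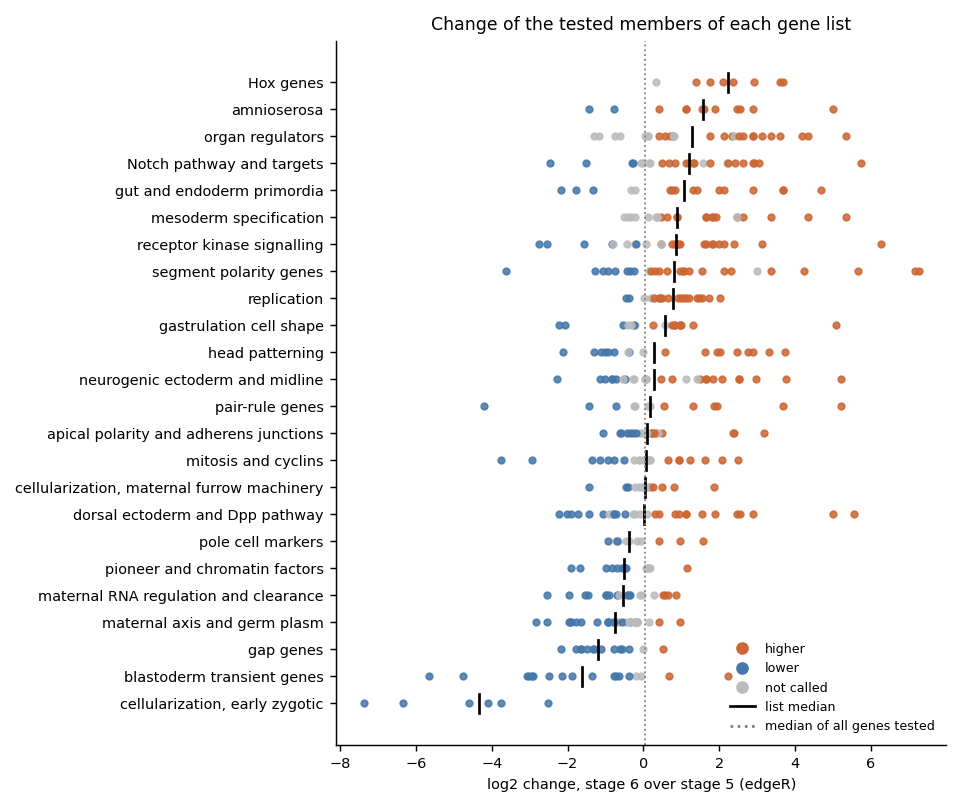
Each point is the log2 change of a tested gene from stage 5 to stage 6, in the gene list named at the left, coloured by its call. Black bars are list medians, from 2.22 for Hox genes to -4.35 for early zygotic cellularization genes, and the dotted line is the median of all genes tested, 0.04.

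Genes transcribed at the blastoderm stage to build the cellularization furrows had the lowest median of the 24 lists plotted. All 6 tested members of the early zygotic cellularization list fell, against 21.5% of all genes, with a median log2 change of -4.35. Among them slam lies on 2L at positions 6372388 to 6377284 (BDGP6.54) and encodes a protein that places the furrow front. Stage 5 embryos had 5139, 6245 and 8637 CPM of slam as the lowest, median and highest value, and stage 6 embryos B, C, D, G and H had 60.7, 59.6, 47.5, 73.1 and 158 CPM. The groups did not overlap, and the log2 change was -6.33 ± 0.28 (adjusted p = 8.53e-26), 80.3-fold lower. Among the stage 6 embryos H was the highest for slam. Next, bnk (bottleneck), which delays closure of the furrow bases, went from 52.0, 93.4 and 269 CPM (lowest, median, highest) to 0.136, 1.70, 1.42, 0 and 0.554 CPM in the same order of embryos, a log2 change of -7.37 ± 0.61 (adjusted p = 4.05e-15). That was the largest fall among called genes with separate groups and a mean of at least 20 CPM at stage 5. The lipid droplet regulator halo fell by 4.09 from 497 ± 102 to 29.1 ± 3.10 CPM (means ± SD, n = 9 and 5 here and throughout). The myosin regulator dunk fell by 4.60, from 271 ± 103 to 11.3 ± 3.90 CPM, and the mitosis inhibitor Z600 (fruhstart) by 3.77, from 111 ± 51.3 to 8.03 ± 1.77 CPM. For halo, dunk and Z600 every stage 6 embryo lay below every stage 5 embryo. The junction gene nullo was scarce already at stage 5, with 4.19 ± 2.19 CPM from 143 reads over the stage, and fell to 0.800 ± 0.763 CPM (log2 change -2.51 ± 0.74, or -3.17 without stage 6 embryo C). The last listed member, Sry-alpha, had 0 reads in all 14 embryos, and its level was 0 at stages 4 and 8 as well. If the counting could assign its reads, this allows up to 0.0890 CPM at stage 5 (3 reads over the stage). Whether it could was not tested, so the 0 does not show that the RNA was absent.

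Genes for furrow proteins that the mother supplies as RNA were called at shares near those of all genes. Of 14 tested, 5 were called higher and 3 lower (35.7% and 21.4%, against 28% and 21.5% of all genes), and the median of 0.04 was that of all genes. The GTPase-activating protein gene Graf fell by 1.44 from 67.0 ± 12.5 to 24.8 ± 6.32 CPM, Rab11 by 0.46 and the anillin gene scra by 0.42. In the other direction cindr, a scaffold of intercellular bridges, rose by 1.86 from 34.1 ± 11.5 to 125 ± 30.0 CPM. RhoGEF2, an exchange factor gene that acts at contracting apical surfaces as well as at furrows, rose by 0.80 from 133 ± 13.96 to 232 ± 19.2 CPM, Patj by 0.50, and the myosin light chain gene sqh by 0.25. Of those named, only sqh had groups that overlapped.

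Many genes with a brief burst of transcription at the blastoderm stage were lost. Among 18 tested blastoderm transient genes, 14 were called lower and 2 higher (77.8% and 11.1%, against 21.5% and 28% of all genes). The list median was -1.61. Subunits of the ELBA complex, an insulator factor of the early embryo, fell together. Elba3 went from 381, 464 and 608 CPM at stage 5 to 12.3, 15.3, 16.4, 11.8 and 33.5 CPM at stage 6, with no overlap and embryo H the highest at stage 6 (log2 change -4.76 ± 0.29, adjusted p = 3.84e-20). The DNA-binding subunits Elba1 and Elba2 fell by 3.07 and 2.90, and their relative insv, a repressor that binds the same sites, by 0.78. At stage 4 Elba2 and insv already stood at 98.0 and 77.1 CPM, whereas Elba1 and Elba3 were at 0.518 and 0.641 CPM. Bsg25D, a centrosomal blastoderm gene, fell by 2.49 from 1789 ± 278 to 319 ± 50.5 CPM, the terminal blastoderm gene term by 1.87, and SNCF by 1.35. Listed genes known by an identifier alone also fell, CG13711 by 5.65, CG13712 by 3.03, and CG13713 fell by 2.95. The members that rose were the Notch targets E(spl)m5-HLH, by 2.23, and Ocho, by 0.67.

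Among the 10 largest falls chosen by that rule, 5 belonged to genes that are known by an identifier alone. CG15382 had 65.6, 93.7 and 188 CPM at stage 5 and 1.49, 0.567, 0.475, 1.61 and 0.830 CPM at stage 6, a log2 change of -6.70 ± 0.40. CG43725 fell by 5.72, CG43184 by 4.74 and CG15876 by 4.65, and CG13711 stands above. Each was under 2 CPM at stage 4, and all 5 were under 2 CPM again at stage 8, so of these 4 stages their RNA was highest at stage 5. The others were bnk, slam, Elba3, the NADPH oxidase maturation gene mol (moladietz) and the formin gene Fhos. The last pair had a different history, with mol at 168 CPM at stage 4, 165 ± 52.0 at stage 5 and 3.19 ± 0.937 at stage 6 (log2 change -5.73 ± 0.37). Fhos stood at 109.8, 63.0 ± 27.2 and 1.996 ± 0.635 CPM (log2 change -5.01 ± 0.32).

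**Figure D4:**
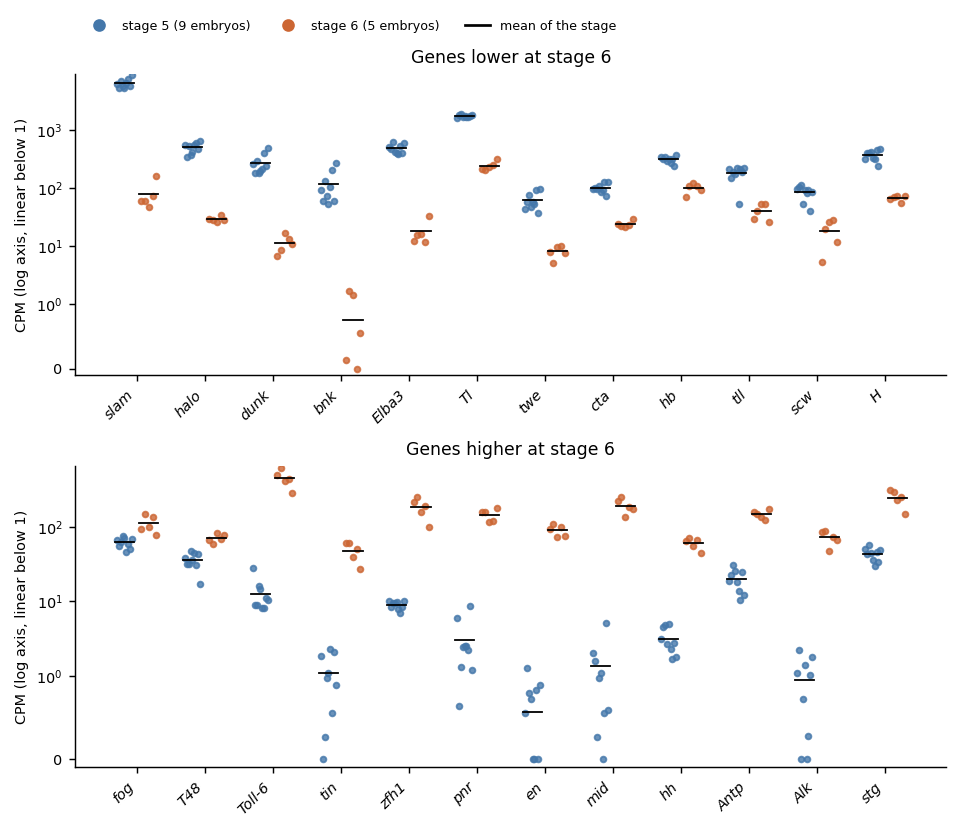
CPM of each embryo (log axis, linear below 1) for 12 genes lower and 12 genes higher at stage 6, with stage means as bars. In all 24 genes the points of the stages are separate, except tll, where stage 5 embryo G comes close to the highest stage 6 embryos without crossing them.

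Of 17 genes that shape cells during gastrulation 9 were called higher and 4 lower (52.9% and 23.5%, against 28% and 21.5% of all genes), with a median of 0.56. The secreted ligand gene fog, whose signal makes ventral and posterior cells constrict at their apical side, had 45.5, 62.1 and 76.1 CPM at stage 5 and 92.4, 150.3, 99.9, 136 and 77.0 CPM at stage 6. All 5 stage 6 embryos lay above the 9 of stage 5, though H only just (log2 change 0.84 ± 0.13, adjusted p = 1.29e-07). T48, a transmembrane protein that recruits RhoGEF2 to the apex, rose by 0.99 from 35.7 ± 9.28 to 71.1 ± 9.72 CPM, and Traf4, which acts on junctions in the folding mesoderm, by 0.96 from 192 ± 47.6 to 373 ± 38.6 CPM. Neither of the receptor genes for Fog was called. For mist the levels were 173 ± 41.8 and 149 ± 61.9 CPM, a log2 change of -0.21 ± 0.16 that was not called (adjusted p = 0.275), but which was called lower without stage 6 embryo C (-0.41). The other receptor gene, smog, had 1.56 ± 0.910 and 2.25 ± 0.547 CPM, with only 57.0% of its reads on its own strand. Their G protein subunit gene cta (concertina) went from 73.9, 97.6 and 128 CPM to 24.4, 21.8, 21.6, 23.02 and 29.1 CPM, 4.21-fold lower and without overlap (log2 change -2.07 ± 0.13, adjusted p = 3.09e-20). Abl, a kinase that restrains apical actin, fell by 2.21 from 532 ± 29.04 to 114.9 ± 28.9 CPM, the receptor kinase gene Gprk2 by 0.54 and Rok, the kinase of myosin light chain, by 0.24.

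In the same list were surface receptors with striped expression. Toll-6, one of the striped Toll family receptors of germ-band extension, had 8.08, 10.4 and 27.98 CPM at stage 5 and 488, 614, 407, 439.7 and 283 CPM at stage 6, with the highest stage 5 value in embryo B. The log2 change was 5.08 ± 0.18 (adjusted p = 1.34e-29), among the 10 largest rises, and stage 8 stood at 886 CPM. Its relative Tollo rose by 0.76 from 539.7 ± 92.7 to 914 ± 81.1 CPM. The teneurin Ten-m, which marks stripes of the trunk, rose by 1.30, with stage 6 embryos at 845, 789, 758, 356 and 762 CPM. There only stage 6 embryo G, the lowest of its stage, lay within the stage 5 range. A further striped receptor, 18w, is not analysed here.

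In the mesoderm, the genes that define its fate were already abundant at stage 5, while those that act next rose. Of 23 tested members of the mesoderm list 14 were called higher and 0 lower (60.9% and 0%, against 28% and 21.5% of all genes). The median was 0.89. The count of lower genes in edgeR was also 0 at an unadjusted p under 0.05 and in DESeq2, but 3 in a fit of the 14 embryos alone. The mesoderm selector gene twi (twist) stood at 269, 305 and 353 CPM at stage 5 and 252, 272, 229.5, 278 and 184 CPM at stage 6, and its target repressor gene sna at 141, 206 and 260.3 and 188, 165, 148, 177 and 101 CPM. Both pairs overlapped, and the log2 changes of -0.33 ± 0.20 and -0.39 ± 0.22 were not called (adjusted p = 0.182 and 0.144). In the fit of the 14 embryos both were called lower, at -0.38 and -0.45. In these embryos they were also called lower with opposite-strand counts (-0.37 and -0.45). The same held with the log2 level of Sxl as a covariate (-0.37 and -0.41). With the title letter as a block in the fit of all embryos, twi was called lower (-0.53). The FGF receptor gene htl (heartless), needed for mesoderm spreading, rose by 0.89 from 111 ± 26.3 to 206 ± 37.1 CPM without overlap. Its adaptor gene stumps rose by 1.83 from 128 ± 37.3 to 454 ± 74.9 CPM. Of the ligands, made in the adjoining ectoderm, ths rose by 1.66 from 79.8 ± 28.3 to 252 ± 38.5 CPM and pyr by 0.46 from 38.0 ± 10.7 to 52.6 ± 7.68 CPM.

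Among the 14 that rose were regulators of later mesoderm fates. The heart and visceral muscle regulator tin (tinman) had 0, 0.973 and 2.29 CPM at stage 5 and 60.8, 60.4, 39.4, 50.9 and 26.9 CPM at stage 6 (log2 change 5.35 ± 0.28, adjusted p = 1.2e-22). The zinc-finger gene zfh1 went from 6.97, 9.48 and 10.2 CPM to 218, 253, 156, 191 and 99.4 CPM, a log2 change of 4.34 ± 0.14, and stage 6 embryo H was the lowest for both. Mef2, the muscle differentiation factor, rose by 2.62 from 8.96 ± 2.38 to 55.2 ± 13.8 CPM. Neither zfh1 nor Mef2 was new to the embryo, with 85.7 and 87.6 CPM at stage 4 before the stage 5 low. The eyes absent gene eya rose by 2.46 and Mes2 by 1.81. The visceral mesoderm gene bap (bagpipe) was barely detected, with 1 read over the stage 5 embryos and 12 over the stage 6 embryos, and was not called without stage 6 embryo B (adjusted p = 0.0769).

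Among genes of Dpp signalling, dpp, scw, tsg, tld and sog fell, and most of the listed amnioserosa genes rose. Whole-embryo libraries do not show where in the embryo a level changed. Dpp, a BMP, is carried to the dorsal midline by Sog and Tsg and released there by the protease Tolloid, and its peak level specifies the amnioserosa. Of 28 tested genes of dorsal ectoderm and Dpp signalling 13 were called higher and 10 lower, with a median of 0.01 (46.4% and 35.7%, against 28% and 21.5% of all genes). The ligand gene dpp had 96.3, 104 and 111 CPM at stage 5 and 61.2, 58.4, 50.3, 55.1 and 71.7 CPM at stage 6, without overlap (log2 change -0.79 ± 0.13, adjusted p = 5.25e-07). The second ligand gene, scw, fell by 2.23 from 83.8 ± 23.6 to 18.2 ± 9.65 CPM and tsg by 1.90 from 68.8 ± 21.5 to 18.6 ± 5.03 CPM. The protease gene tld fell by 1.08 from 371 ± 38.6 to 176 ± 34.2 CPM. The X-linked gene sog fell by 0.49 from 661 ± 159 to 470.2 ± 61.1 CPM with overlap, and 2 of the stage 6 embryos lay below all of stage 5. Other members, singled out after their values were seen, did not fall: cv-2, a BMP-binding modulator, rose by 0.82 from 124 ± 18.2 to 219.8 ± 33.5 CPM without overlap, and tok, a relative of tld, stood at 131 ± 15.4 and 124 ± 28.2 CPM and was not called. The receptor genes diverged. While put fell by 1.72, sax, likewise chosen after its values were seen, rose by 0.30 from 79.4 ± 18.3 to 97.2 ± 9.17 CPM with overlap (0.24 and not called in the 14 embryos alone, adjusted p = 0.157), and tkv, at 220.4 ± 42.1 and 237 ± 26.6 CPM, was not called. The signal transducer gene Mad fell by 2.01, from 369 ± 31.6 to 91.2 ± 9.16 CPM. Both put and Mad were present before, at 207 and 206 CPM at stage 4.

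Among Dpp targets, zen, the earliest amnioserosa regulator, fell from 51.0, 78.0 and 102 CPM to 30.5, 22.98, 24.9, 31.9 and 40.1 CPM, without overlap (log2 change -1.43 ± 0.29). All other tested members of the amnioserosa list rose, except the tumour necrosis factor gene egr, which fell by 0.78. Of 12 tested, 10 were called higher (83.3%, against 28% of all genes), with a median of 1.57. The GATA factor pnr had 0.645, 2.43 and 8.67 CPM at stage 5 and 158, 156, 116, 119.9 and 179.7 CPM at stage 6 (log2 change 5.55 ± 0.22, adjusted p = 3.21e-27). Its cofactor gene ush rose by 2.90 from 41.0 ± 19.6 to 305 ± 54.0 CPM, peb (hindsight) by 2.54 from 22.8 ± 10.4 to 134 ± 41.1 CPM, tup by 1.88, zen2 by 2.46 and the T-box gene Doc2 by 1.54. The homeobox gene C15 went from 0.342 ± 0.435 to 13.0 ± 1.36 CPM (5.01 ± 0.27), and changed by 5.79 without stage 5 embryo B. The groups were separate for pnr, ush, peb, tup, zen2, Doc2 and C15.

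In the segmentation cascade most gap genes fell and most segment polarity genes rose. Gap genes divide the egg into broad domains and are set by maternal gradients. Of 14 tested, 12 fell and 1 rose (85.7% and 7.14%, against 21.5% and 28% of all genes), with a median of -1.21. Hunchback, hb, had 242, 316 and 372 CPM at stage 5 and 70.0, 110.1, 121, 109 and 91.4 CPM at stage 6, 3.11-fold lower and without overlap (log2 change -1.64 ± 0.16, adjusted p = 3.08e-13). The abdominal gap gene kni fell by 1.64 from 198 ± 24.9 to 63.5 ± 14.9 CPM, gt from 176 ± 33.7 to 62.6 ± 12.1 CPM and the central gap gene Kr fell by 0.62 from 333 ± 48.7 to 217 ± 25.7 CPM, with overlap for Kr. Of the genes of the embryo's ends, tll fell by 2.17 from 179 ± 52.6 to 39.9 ± 12.5 CPM, hkb by 1.34 from 102 ± 26.1 to 40.0 ± 13.4 CPM, and cad, the posterior gradient gene, by 1.78 from 57.2 ± 18.7 to 16.96 ± 10.6 CPM. With embryos 5G and 6H left out all 3 were still called lower, at -2.17, -1.27 and -1.55. The POU gene pdm2 rose by 0.52.

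Pair-rule genes act in alternate segments, and of 13 tested 6 rose and 3 fell (46.2% and 23.1%, against 28% and 21.5% of all genes), with a median of 0.17. The primary gene h (hairy) fell by 1.45 from 210.4 ± 16.99 to 77.4 ± 16.8 CPM and eve by 0.73 from 73.9 ± 22.5 to 44.6 ± 10.7 CPM, while run stood at 245 ± 90.7 and 209.7 ± 29.9 CPM and was not called. Of the later genes, ftz (183 ± 42.5 and 154 ± 16.6 CPM), odd (146 ± 21.9 and 159 ± 9.76 CPM) and opa (524 ± 98.0 and 589 ± 72.0 CPM) were not called. The gene prd rose by 0.54 from 169 ± 47.5 to 246 ± 31.5 CPM, a call lost with embryos 5G and 6H left out (0.46, adjusted p = 0.0678). The sloppy paired gene slp1 had 40.4, 46.1 and 64.1 CPM at stage 5 and 206, 195.7, 188, 170.2 and 167 CPM at stage 6, without overlap (log2 change 1.94 ± 0.16, adjusted p = 4.52e-15), and slp2 rose by 1.30. Among relatives of odd, drm rose by 3.67 from 9.01 ± 3.34 to 116 ± 21.8 CPM and sob by 1.86. The largest changes of the list were of other kinds of factor. The cofactor gene of Ftz, ftz-f1, fell from 105, 158 and 267 CPM to 9.64, 6.81, 6.17, 8.83 and 16.9 CPM (log2 change -4.21 ± 0.29), and the homeobox gene Dr rose from 1.08 ± 0.582 to 41.4 ± 6.72 CPM (5.21 ± 0.28).

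Segment polarity genes fix the boundary in every segment through Wingless and Hedgehog signals. Of 26 tested, 16 rose and 8 fell (61.5% and 30.8%, against 28% and 21.5% of all genes), with a median of 0.80. Engrailed, en, on 2R at positions 11524006 to 11528210, went from 0, 0.730 and 1.29 CPM at stage 5 to 92.8, 109.5, 74.1, 99.6 and 74.2 CPM at stage 6. These groups were far apart, with a log2 change of 7.26 ± 0.22 (adjusted p = 5.99e-32). Midline, mid, which encodes a T-box factor, went from 0, 0.973 and 5.204 CPM, with embryo I the highest, to 219.8, 248, 136, 186 and 172 CPM (log2 change 7.17 ± 0.24). Hedgehog, hh, rose by 4.23 from 3.19 ± 1.29 to 60.2 ± 10.5 CPM, gsb by 5.67 from 1.42 ± 0.986 to 76.0 ± 12.9 CPM, and wg by 2.13 from 37.3 ± 12.2 to 163 ± 19.4 CPM. Signal reception was uneven. The Hedgehog receptor gene ptc was already high, at 905 ± 124 and 996 ± 99.1 CPM, and was not called, whereas its co-receptor genes ihog and boi rose by 1.54 and 1.21 and the effector gene ci by 1.08, from 819 ± 117 to 1736 ± 158 CPM. The Wingless receptor gene fz2 rose by 2.30 from 104 ± 25.7 to 514 ± 28.1 CPM and the antagonist gene nkd by 0.96. In contrast dsh, the relay of Wingless receptors, fell by 1.27, the Hedgehog release gene disp by 1.05 and the Hedgehog kinase gene fu by 0.94. The ligand gene Wnt6 had 9 reads over the stage 5 embryos and 0 over the stage 6 embryos.

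**Figure D5:**
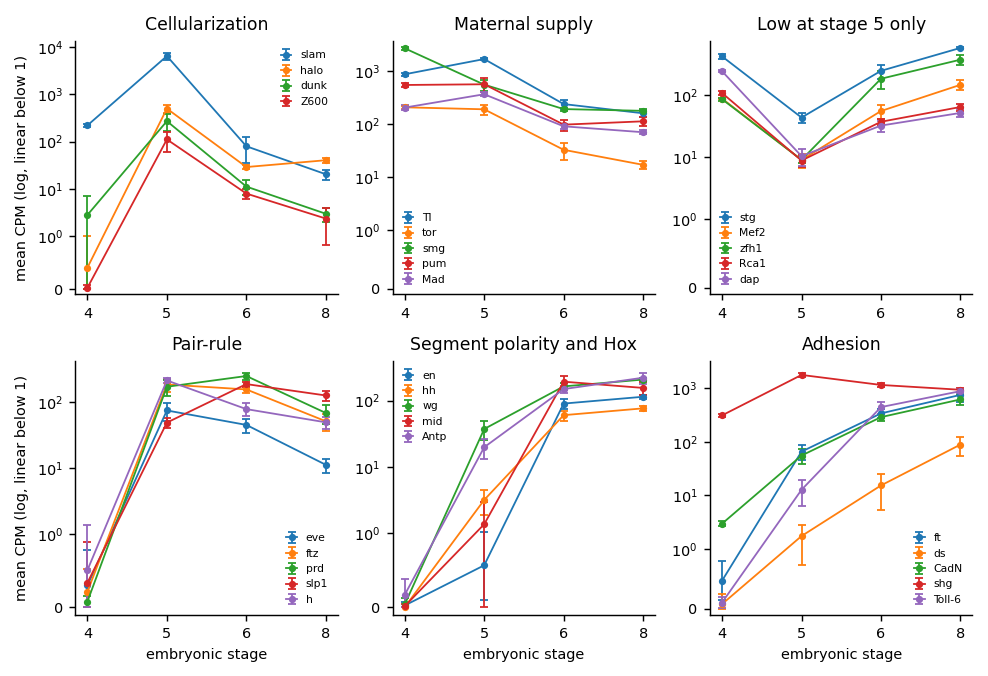
Mean CPM (log axis, linear below 1) with SD at stages 4, 5, 6 and 8 for 6 groups of genes (5, 9, 5 and 5 embryos). Cellularization genes peak at stage 5, a group present at stage 4 that includes stg and Mef2 is low at stage 5 only, and en, hh, wg, mid and Antp are near 0 at stage 4 and high at stages 6 and 8.

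Hox genes give segments their identity, and 7 of 8 rose (87.5%, against 28% of all genes), with a median of 2.22. In order along the body, lab rose by 2.09 from 0.817 ± 0.588 to 3.81 ± 1.30 CPM and pb, at 0.498 ± 0.388 and 0.674 ± 0.484 CPM, was not called. Deformed, Dfd, rose by 1.38 from 25.9 ± 7.91 to 67.7 ± 8.13 CPM and Scr by 3.61 from 2.30 ± 0.844 to 28.8 ± 4.31 CPM. The thoracic gene Antp had 10.6, 19.1 and 30.7 CPM at stage 5 and 158, 150.3, 137, 125 and 174 CPM at stage 6, 7.51-fold higher without overlap (adjusted p = 9.28e-22). In the abdomen Ubx rose by 1.75 from 9.15 ± 2.47 to 31.0 ± 7.18 CPM and abd-A by 2.36 from 12.3 ± 2.48 to 64.0 ± 17.4 CPM. Abd-B had 0.254, 2.80 and 6.13 CPM at stage 5 and 19, 57.6, 42.7, 51.1 and 2.49 CPM at stage 6, so embryo H lay within the stage 5 range. Its log2 change was 3.69 ± 0.62, and 3.82 with embryos 5G and 6H left out.

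Of 18 head patterning genes 9 were called higher and 7 lower (50% and 38.9%, against 28% and 21.5% of all genes), with a median of 0.29. Falls were led by dac (-2.12), ems (-1.31), croc (-1.11) and the Sox gene D (from 374 ± 96.8 to 187 ± 45.6 CPM). Rises were led by the eye-field genes so (3.72) and toy (2.76), by gcm (2.90), and by Rx, which had 0.0579 ± 0.115 and 0.815 ± 0.984 CPM and was no longer called without stage 6 embryo G (adjusted p = 0.106). The early eye and brain genes toy and so stood at 5.34 ± 2.74 and 1.04 ± 0.642 CPM at stage 5 and at 37.7 ± 10.7 and 14.3 ± 2.505 CPM at stage 6, without overlap.

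The neurogenic ectoderm lies beside the mesoderm and gives rise to the midline and the nerve cord. Among 28 tested, 12 were called higher and 7 lower (42.9% and 25%, against 28% and 21.5% of all genes), with a median of 0.27. The midline regulator sim had 0.557, 3.82 and 8.76 CPM at stage 5 and 50.9, 78.9, 60.3, 68.3 and 29.3 CPM at stage 6, 13.5-fold higher without overlap (log2 change 3.76 ± 0.23, adjusted p = 6.57e-19). Of the genes for columns of the nerve cord, the ventral vnd stood at 95.5 ± 14.5 and 81.3 ± 20.5 CPM and was not called (lower without stage 6 embryo G, -0.37), the intermediate ind rose by 2.97 from 4.40 ± 4.68 to 35.2 ± 7.79 CPM, and the dorsal Dr is given above. The neural Sox gene SoxN rose by 1.49 from 189 ± 33.8 to 531 ± 41.2 CPM. Proneural genes were low at stage 5 and rose, ac by 2.52 to 13.5 ± 10.9 CPM and l(1)sc by 1.65 to 48.9 ± 19.9 CPM. The adaptor of asymmetric neuroblast division, mira, stood at 945 ± 159 and 988 ± 84.3 CPM and was not called. Falls were led by nerfin-1 (-2.28), phyl (-1.15), D and cas (-0.83), and the call of cas was lost without stage 5 embryo B, C, D, E or G or stage 6 embryo B, G or H (-0.84 to -0.58), and without embryos 5G and 6H together (-0.56, adjusted p = 0.21). The limb regulator Dll rose by 2.51.

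Notch signalling restricts neural fate, and Bearded family proteins inhibit it. Of 25 tested genes of the pathway and its targets 15 rose and 4 fell (60% and 16%, against 28% and 21.5% of all genes). The list median was 1.21. Among receptor and ligand genes Delta, Dl, rose by 0.50 from 985 ± 191 to 1393 ± 121 CPM, and N, at 1009.6 ± 158 and 1148 ± 310.2 CPM, was not called. Components of the nuclear switch fell, with the repressor gene H (Hairless) at 236, 404 and 462 CPM in stage 5 and 65.3, 69.5, 72.4, 54.3 and 72.8 CPM in stage 6, without overlap (log2 change -2.47 ± 0.12). Su(H), the DNA-binding partner of Notch and of Hairless, fell by 1.52 from 261 ± 13.8 to 91.1 ± 22.7 CPM and gro by 0.28. Outside that switch, kuz fell by 0.30. Of the Bearded family, Tom rose by 1.21 from 412 ± 121 to 955 ± 55.1 CPM, Brd by 1.32 and BobA by 1.76, with stage 5 embryo I the highest of its stage for BobA. Of 11 listed genes of the Enhancer of split complex, the targets of Notch, 9 were called higher. E(spl)m4-BFM, chosen after its values were seen as are E(spl)m7-HLH, E(spl)mdelta-HLH and E(spl)m3-HLH, rose by 1.31 from 23.5 ± 8.16 to 58.3 ± 13.5 CPM with overlap. E(spl)m7-HLH rose by 1.11 from 12.2 ± 2.87 to 26.5 ± 5.44 CPM, and E(spl)m5-HLH, given above, stood at 10.5 ± 3.93 and 49.6 ± 11.2 CPM. Others were scarcer at stage 5. E(spl)malpha-BFM went from 2.43 ± 0.495 to 18.6 ± 2.84 CPM, E(spl)m8-HLH from 1.78 ± 0.947 to 9.57 ± 1.66 CPM and E(spl)m6-BFM from 0.181 ± 0.234 to 1.48 ± 0.323 CPM. E(spl)m2-BFM had 2 reads over the stage 5 embryos and 4.33 ± 1.49 CPM at stage 6, and E(spl)mbeta-HLH had 2 reads and 0.650 ± 0.437 CPM. E(spl)mdelta-HLH and E(spl)m3-HLH, with 8 and 1 reads at stage 5 and 17 and 5 at stage 6, were not called in edgeR, but E(spl)mdelta-HLH was in DESeq2 (adjusted p = 0.0309). Reads shared by similar members of these families may be split between them.

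Of 26 genes of receptor tyrosine kinase signalling, 16 were called higher and 5 lower (61.5% and 19.2%, against 28% and 21.5% of all genes). The list median was 0.85. The receptor gene Alk, of the visceral mesoderm, had 0, 1.04 and 2.26 CPM at stage 5 and 86.4, 87.7, 47.7, 73.9 and 67.5 CPM at stage 6 (log2 change 6.26 ± 0.37, adjusted p = 8.98e-21). The FGF ligand gene bnl rose by 3.14 from 2.45 ± 1.32 to 21.97 ± 2.72 CPM and its receptor gene btl by 2.12 from 2.87 ± 1.31 to 13.1 ± 5.75 CPM. Nuclear effectors of these receptors rose, pnt from 26.8 ± 6.70 to 108 ± 9.34 CPM and its opponent aop by 1.80 from 154 ± 26.8 to 535 ± 41.8 CPM, and so did the feedback inhibitor gene sty, by 1.61. The terminal receptor gene tor fell from 141, 189.9 and 265 CPM to 29.7, 19.6, 23.97, 43.1 and 47.3 CPM, without overlap (log2 change -2.55 ± 0.24). Of genes that act below it, csw fell by 2.74 from 78.8 ± 31.7 to 11.7 ± 2.32 CPM and the MAP kinase gene rl by 1.56 from 137 ± 33.6 to 46.8 ± 7.62 CPM. In the same relay, and chosen after their values were seen, Ras85D fell by 0.20 from 378 ± 16.8 to 328 ± 29.3 CPM with overlap, whereas the exchange factor gene Sos rose by 0.88 from 135 ± 18.5 to 249 ± 16.9 CPM without overlap. The activator of the Torso ligand, tsl, was called higher at low levels, 0.117 ± 0.145 and 0.754 ± 0.427 CPM.

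Of 16 genes of the gut primordia 11 rose and 3 fell (68.8% and 18.8%, against 28% and 21.5% of all genes). Those that fell were tll, cad and hkb, given above, and the list median was 1.08. The GATA gene srp, of endoderm and blood, had 134, 148 and 272 CPM at stage 5, with embryo I the highest, and 297, 269, 221, 282 and 298 CPM at stage 6 (log2 change 0.70 ± 0.11). GATAe, which acts after srp, had 2 reads over the stage 5 embryos and 2.07 ± 0.991 CPM at stage 6. For byn and fkh the log2 changes were -0.23 ± 0.49 and -0.32 ± 0.20, and neither was called. Without stage 6 embryo H that of byn was 0.09. That of fkh was called without stage 5 embryo G, at -0.46, or stage 6 embryo G, at -0.52, and with both embryos left out the values were -0.04 and -0.26 (adjusted p = 0.969 and 0.0509). The homeobox gene exex, a motor neuron regulator, chosen after its values were seen, rose from 0.232 ± 0.202 to 7.35 ± 4.44 CPM, with 0.277 CPM in embryo H. Its log2 change was 4.83 ± 0.45, and 5.13 without embryos 5G and 6H.

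Of 28 regulators of organs 17 rose and 0 fell in edgeR (60.7% and 0%, against 28% and 21.5% of all genes). The count of lower genes was also 0 at an unadjusted p under 0.05 and in DESeq2, and the median was 1.27. The genes tin, zfh1 and Scr, given above, are among the 17. The secretion regulator CrebA, of the salivary gland, had 1.02, 2.08 and 4.08 CPM at stage 5 and 52.8, 62.1, 24.2, 33.5 and 51.2 CPM at stage 6, without overlap (log2 change 4.18 ± 0.22, adjusted p = 2.76e-22). The glial switch gene gcm rose by 2.90 from 2.96 ± 2.19 to 22.6 ± 6.08 CPM, and the Hox cofactor gene hth by 0.78 from 641 ± 119.5 to 1103 ± 205 CPM. Genes known by an identifier alone were also among the 10 largest rises. CG34025 had 3 reads over the 9 stage 5 embryos and 673 over the 5 stage 6 embryos, at 30.3, 38.0, 22.5, 31.6 and 28.5 CPM, and CG7255 rose by 4.76 from 1.38 ± 1.01 to 37.4 ± 14.4 CPM after 51.7 CPM at stage 4.

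Of 20 genes of apical polarity and adherens junctions 8 were called higher and 7 lower (40% and 35%, against 28% and 21.5% of all genes), with a median of 0.09. The E-cadherin gene shg had 1507, 1838 and 2096 CPM at stage 5 and 1065, 1113, 1102, 1170.2 and 1331 CPM at stage 6, without overlap (log2 change -0.62 ± 0.06, adjusted p = 4.21e-13). Its partner p120ctn fell by 1.08 from 522 ± 64.9 to 247 ± 42.1 CPM, the actin linker cno by 0.58 and par-6 by 0.45, while crb stood at 1191 ± 151 and 1113 ± 209 CPM and was not called. N-cadherin, CadN, which the mesoderm takes up in place of E-cadherin, had 34.8, 50.3 and 81.2 CPM at stage 5 and 250.4, 350.1, 272, 323 and 256 CPM at stage 6, 5.204-fold higher without overlap (adjusted p = 1.11e-18). The giant cadherin gene ft rose by 2.37 from 65.9 ± 19.9 to 341 ± 62.1 CPM, and its ligand gene ds by 3.19 from 1.75 ± 1.02 to 15.4 ± 10.1 CPM, with embryo B the highest at stage 6. At stage 8 ft, ds and CadN stood higher still, at 755, 89.3 and 621 CPM.

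Among 24 genes that drive or restrain mitosis, 7 were called higher and 7 lower (29.2% each, against 28% and 21.5% of all genes), with a median of 0.06, so the counts lie near the background. The Cdc25 phosphatase gene stg, whose transcription triggers the divisions after cellularization, had 30.0, 44.7 and 56.3 CPM at stage 5 and 307, 292, 231, 250.3 and 149 CPM at stage 6, without overlap (log2 change 2.51 ± 0.14, adjusted p = 7.32e-22). It stood at 421 CPM at stage 4, so stage 5 was its low point. The second Cdc25 gene, twe, fell from 37.8, 56.4 and 96.4 CPM to 7.87, 5.11, 9.73, 9.90 and 7.75 CPM (-2.93 ± 0.26), and trbl, which destabilizes String protein and holds back mitosis in the ventral furrow, by 1.14 from 629 ± 70.9 to 285 ± 19.2 CPM. Rca1 rose by 2.07 from 8.74 ± 1.97 to 37.0 ± 4.26 CPM and the Cdk inhibitor gene dap by 1.63 from 10.3 ± 3.25 to 32.1 ± 6.46 CPM. CycD fell by 1.36, and CycB, at 1114 ± 141 and 1185 ± 144 CPM, was not called. The meiotic gene cort was called higher, but only 25.1% of its reads lay on its own strand.

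Most replication genes rose, with 15 of 20 called higher and 2 lower (75% and 10%, against 28% and 21.5% of all genes). Their median was 0.79. The helicase gene Mcm2 had 103, 118 and 147 CPM at stage 5 and 362, 332, 358, 339 and 277 CPM at stage 6 (log2 change 1.47 ± 0.13, adjusted p = 1.74e-14). Orc2 of the origin complex rose by 2.02 from 14.7 ± 3.24 to 59.8 ± 8.91 CPM, RnrS, for nucleotide supply, by 1.55 from 137 ± 15.0 to 402 ± 56.5 CPM, and the primase subunit DNApol-alpha60 by 1.73. All stage 6 embryos lay above all stage 5 embryos for these 4 genes. The licensing regulators fell, Cdc6 by 0.45 from 361 ± 16.4 to 264 ± 29.2 CPM and geminin by 0.37.

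Most maternal patterning RNAs fell. Among 28 tested that pattern the axes or build the germ plasm, 15 were called lower and 2 higher. These are 53.6% and 7.14%, against 21.5% and 28% of all genes, and the median was -0.75. The dorsoventral receptor gene Toll, Tl, had 1596, 1712 and 1868 CPM at stage 5 and 210.3, 202, 227, 252 and 310.3 CPM at stage 6, 7.12-fold lower without overlap (adjusted p = 2.14e-22). Its stage 4 level was 880.02 CPM. The gene dl, whose protein acts below Toll, had 1.99 ± 0.930 CPM at stage 5 and 1.43 ± 0.498 CPM at stage 6 after 123 CPM at stage 4, and was not called. Over the stage 5 and 6 embryos, 79.2% of the reads of dl lay on its own strand. The anterior determinant bcd fell by 1.90 from 10.2 ± 5.41 to 2.66 ± 0.910 CPM, swa by 1.94 and the Toll pathway protease gene snk by 1.97. Among pole cell markers, 2 of 11 fell and 3 rose (18.2% and 27.3%, near the 21.5% and 28% of all genes), with a median of -0.39. Here osk fell by 0.92, a call lost without stage 5 embryo D, F, H or J or stage 6 embryo B, C, D or H (-0.97 to -0.77) and without embryos 5G and 6H together (-0.82, adjusted p = 0.108), and aub by 0.71, while tud rose by 0.96 from 136 ± 6.46 to 263 ± 41.0 CPM, ovo by 1.57 and vls by 0.42, the last not called without stage 6 embryo C or G (0.39 and 0.37). Of the RNAs low in embryos 5G and 6H, nos (-0.68) and pgc (-0.73) were not called, nor were they without both embryos (-0.54 and -0.58, adjusted p = 0.205 and 0.113), and pgc was called lower without embryo 5G alone (-0.89).

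RNAs of many regulators of maternal transcripts fell, with 11 of 20 lower and 4 higher (55% and 20%, against 21.5% and 28% of all genes). Their median was -0.54. Smaug, smg, which marks maternal RNAs for decay, had 389, 521 and 773 CPM at stage 5 and 184, 195, 195.8, 178 and 213 CPM at stage 6, without overlap (log2 change -1.54 ± 0.13, adjusted p = 2.08e-15). The translational repressor gene pum fell by 2.54 from 569.7 ± 163 to 98.0 ± 23.6 CPM, the poly(A) polymerase gene wisp by 1.96 from 884 ± 141 to 227 ± 62.1 CPM and plu by 1.47. Not1, the scaffold of the deadenylase complex, fell by 0.90 from 2541 ± 193 to 1366 ± 260.2 CPM, with embryo H the highest at stage 6, whereas its deadenylase gene twin rose by 0.57 from 96.3 ± 15.3 to 143 ± 5.98 CPM. The others that rose were brat (0.51), mute (0.86) and the decapping gene Dcp1 (0.64).

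Genes of pioneer factors, which open the genome at its activation, and of other chromatin factors mostly fell. Of 14 tested 9 fell and 1 rose (64.3% and 7.14%, against 21.5% and 28% of all genes), with a median of -0.50. The pioneer factor gene zld (Zelda) had 2030.1, 2397 and 2681 CPM at stage 5 and 1463, 1999, 1299.6, 1766 and 1874 CPM at stage 6. The groups did not overlap, and the change was small (log2 change -0.48 ± 0.12, adjusted p = 0.000757). The embryonic linker histone gene BigH1 fell by 1.68 from 35.2 ± 9.44 to 10.7 ± 4.00 CPM, the insulator gene BEAF-32 by 0.98 from 116 ± 21.3 to 58.5 ± 4.85 CPM, Clamp by 0.83 and Trl (GAGA factor) by 0.58. CTCF, another insulator gene, rose by 1.15 from 15.0 ± 2.63 to 33.5 ± 2.82 CPM after 110.3 CPM at stage 4.

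Markers of differentiated cell types and of the ovary were examined as other sources of RNA. Of 8 tested markers of differentiated neurons 3 were called higher and 1 lower (37.5% and 12.5%, against 28% and 21.5% of all genes), and their summed level was 255 to 462 CPM at stage 5 and 454 to 599 CPM at stage 6. Most of it was elav and Syx1A, which rose by 0.61 and 0.36, with futsch at 1.45, and para was called lower with 28.2% of its reads on its own strand, a call lost without stage 5 embryo E or stage 6 embryo G (-0.94 and -0.90). For muscle 0 of 10 were higher and 1, Tm1, was lower (-0.28), with sums of 676 to 831 and 574 to 723 CPM. For cuticle and trachea 0 of 9 were higher and 1, obst-B, was lower at 1 read over the stage 6 embryos, a call lost with any of stage 5 embryos B, D and G and stage 6 embryos C, D, G and H left out, with sums of 8.65 to 16.5 and 10.7 to 21.3 CPM. Of 9 hemocyte markers 4 were higher, srp, gcm, crq (0.75) and Hml, the last with 12.7% of its reads on its own strand, with sums of 148 to 297 and 284 to 356 CPM and NimC1 at 0 reads. Yolk protein and eggshell markers of the ovary summed to 2.26 to 61.0 CPM at stage 5 and 1.66 to 24.2 CPM at stage 6, and 0 of 3 tested were called. In the muscle, cuticle and ovary lists the counts of 0 stood also in DESeq2 and at an unadjusted p under 0.05. The part of such cells in the results was not tested.

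The series concerns the dosage of the X chromosome. Of 1607 X-linked genes tested 345 (21.5%) rose and 398 (24.8%) fell, with a median log2 change of -0.02, against 2349 (29.4%), 1666 (20.9%) and 0.06 for 7985 genes of chromosomes 2 and 3. Per embryo, the log2 ratio of the median X-linked CPM to the median autosomal CPM was 0.0966 ± 0.150 (SD, n = 9) at stage 5 and -0.0464 ± 0.226 (SD, n = 5) at stage 6. The difference of -0.143 did not pass the threshold (exact two-sided permutation test, p = 0.166 over 2002 groupings). With the ratio of summed CPM in place of medians it was -0.140 and passed (X against autosomes, exact permutation p = 0.0345). The ratio was above 0 in exactly the embryos with over 1000 CPM of Sxl, 6 of 9 at stage 5 and 2 of 5 at stage 6, so these shares move with the stage difference. In a fit of the 14 embryos alone, 254 of 1246 X-linked genes rose and 409 fell (median -0.09). Of 5942 genes of chromosomes 2 and 3 in that fit, 1902 rose and 1726 fell (median -0.0003). With the log2 level of Sxl as a covariate, a repeat chosen after seeing the data, 332 X-linked genes rose and 419 fell (median -0.07). On chromosomes 2 and 3 it was 1921 and 1774 (median -0.0014). The male-specific subunit gene msl-2 stood at 273 ± 147 and 289.8 ± 195 CPM and the noncoding RNA gene roX1 at 2017 ± 668 and 1678 ± 418 CPM. Neither was called. In the dosage compensation list of 8, Clamp, msl-1 (-0.66) and mof (-0.66, adjusted p = 0.0499) were lower, and mle (0.06), msl-3 (0.45, adjusted p = 0.0508) and roX2 (0.62) were not called. With 0 higher in edgeR and in DESeq2, 1 was higher at an unadjusted p under 0.05, which was msl-3, and it was called with any of embryos 5H, 5J, 6C and 6G left out (0.52 to 0.57). Leaving out any of stage 5 embryos D, E, G, H and J and stage 6 embryos C and G removed the call of mof (-0.67 to -0.46). That call was also lost without a count filter (-0.65) and with the title letter as a block (-0.66).

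Reads assigned to no gene, which include reads from introns, were 4.87 ± 0.998% (SD, n = 9) of assigned reads at stage 5 and 5.08 ± 1.61% (SD, n = 5) at stage 6. The difference of 0.209 percentage points did not pass the threshold (exact two-sided permutation test, p = 0.764). Its direction turned when reads assigned to no gene were taken as a share of all reads (-0.0189), and it ran from -0.374 without stage 6 embryo H to 0.595 without stage 6 embryo B, and was also below 0 without stage 6 embryo C (-0.0355).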

How the data were processed

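The authors deposited read counts per gene for each embryo, made with STAR 2.5.3a on the dm6 assembly per the submitters' processing notes. The sources used here do not name the annotation used for counting. The deposited counts without regard to strand were used, and the entries for reads in no gene, in several genes or unmapped stayed out of library sizes and tests (no gene 3.51 to 7.41% and several genes 4.91 to 5.64% of assigned reads). Reads in genes were 13.1 to 17.1% of all reads. Spike-in RNA was added per the labels' protocols and was not used, so levels are relative to each embryo's own RNA.

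Symbols, arms and coordinates come from Ensembl's BDGP6.54 annotation, release 115. Counts of all 54 embryos were fitted by stage with edgeR 4.0.16 in R 4.3.3 (TMM scaling, filterByExpr, quasi-likelihood test), which uses all 8 stages to estimate the spread, and p-values of stage 6 against stage 5 were adjusted over 9783 genes by Benjamini-Hochberg. The scripts were tested on simulated data. Single values per embryo were compared by exact permutation over all groupings. Replicates of a stage differed by more than sampling noise in every pair (chi-square over degrees of freedom 4.79 to 24.1 at stage 5 and 8.44 to 19.9 at stage 6).

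The text names the 10 largest rises and falls among called genes with separate groups and a mean of at least 20 CPM, a set of key genes, and the 4 largest called rises and falls of each of 30 lists; a gene in more than 1 list is described once, and 1 gene that the rule names is not reported here. The comparison, lists and key genes were chosen with earlier results of these data known. Alternatives were DESeq2's size factors and test (1.42.0), other count filters, the 14 embryos alone, opposite-strand counts, the title letter as a block, and each embryo left out in turn. The Sxl covariate and the joint omission of embryos 5G and 6H were chosen after seeing the data. Genes of the lists without a matching symbol (among them 18w, zip, Med, Orc1 and esg) are not analysed here.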

Additional observations from a re-analysis of the deposited data

Results flagged for a closer look

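Of 490 groups of embryo values examined, 37 held an embryo whose gap to the others was wide relative to the range of its group. The nominal rate of such groups by chance is about 1 in 20. Groups share embryos, and where 1 embryo holds the only read the gap equals the range. The 37 therefore do not measure an excess over chance. Flagged values are in CPM unless stated, set against the range of the other embryos of that stage. Stage 5 embryo G was low for tll (52.6 against 147 to 217), byn (38.1 against 112 to 162) and fkh (32.5 against 152 to 216).

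Stage 6 embryo H was high for slam (158 against 47.5 to 73.1), Elba3 (33.5 against 11.8 to 16.4), CG43725 (9.41 against 1.34 to 3.53), crb (1484 against 978 to 1044), Not1 (1824 against 1189 to 1296) and cno (1019 against 772 to 800). These genes fell between the stages or, for crb, were not called.

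Stage 5 embryo B was high for Z600 (239 against 68.1 to 131), cindr (62.4 against 20.3 to 35.1), Toll-6 (27.98 against 8.08 to 16.3), gt (258 against 150.2 to 195.7), C15 (1.30 against 0 to 0.645) and roX2 (4.45 against 0.559 to 2.13). Stage 5 embryo I was high for CG34025 (0.694 against 0 to 0.243), mid (5.204 against 0 to 2.04), Su(H) (291 against 247 to 269), BobA (111 against 31.8 to 55.95), Ocho (112 against 57.6 to 79.7), srp (272 against 134 to 189) and crb (1519 against 957 to 1228).

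Stage 5 embryo J was high for CG13711 (59.1 against 14.5 to 37.1), CG15876 (149 against 61.6 to 102), Mef2 (14.02 against 5.55 to 9.79) and D (585 against 279.96 to 425). Stage 5 embryo H was high for CG7255 (3.90 against 0.645 to 1.79) and held the only read of bap at its stage (0.279). Stage 5 embryo E held the only read of E(spl)m3-HLH at its stage (0.243). At stage 6, embryo G was low for Ten-m (356 against 758 to 845) and tud (190.3 against 275 to 290.4), and embryo C for Mad (74.9 against 93.7 to 96.8) and Patj (139 against 159 to 165). Stage 6 embryo B was high for ds (32.8 against 8.79 to 15.2) and held the only read of obst-B (0.136).

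Embryo B was the most deeply sequenced in both stages, with 5983843 reads in genes against 3326516 to 4486278 at stage 5, and 7955337 against 3607948 to 4341195 at stage 6.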

How the results depend on the processing

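The main counts of 2742 genes higher and 2107 lower stayed within 1.5 times under all alternatives that kept the threshold. They were 2682 and 2155 with DESeq2's size factors, 2724 and 2208 with DESeq2's test, 2750 and 1995 without a filter, 2240 and 1823 with a minimum of 10 CPM, 2199 and 2183 in the 14 embryos alone, 2237 and 2170 with opposite-strand counts, 2297 and 2241 with Sxl as a covariate (chosen after seeing the data), 2683 and 1958 without embryos 5G and 6H (likewise), and 2602 to 2789 and 1950 to 2098 with 1 embryo left out. The balance of the calls moved more. Higher genes were 56.5% of the called genes in the main fit of 9783 genes. They were 50.2% in the fit of the 14 embryos alone, which tested 7351 genes with a median log2 change of -0.02. Background shares of the main fit therefore do not carry over to that fit. Requiring a 2-fold change as well moved the main counts to 1127 and 857. Title letters did not pair the embryos: deviations of same-letter embryos correlated at 0.247 for B, 0.077 for C, -0.035 for D, -0.092 for G and -0.004 for H. The fit with the letter as a block gave 2663 and 2074.

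The value for X against autosomes was -0.140 with the ratio of summed CPM and then passed the threshold (exact permutation p = 0.0345). It was -0.106 in same-letter differences (replicate block), -0.168 with at least 10 CPM and -0.167 with opposite-strand counts, and -0.214 to -0.0986 with 1 embryo left out. The difference in reads assigned to no gene reversed to -0.0189 as a share of all reads, and ran from -0.374 to 0.595 with 1 embryo left out. Of 242 named genes under 23 alternatives, 10 lost their call in at least 1, 8 gained one and 4 reversed without a call: pb (-0.17 without stage 6 embryo D, and up to 0.64 with another left out), byn (-0.51 to 0.089, the last without stage 6 embryo H), tok (-0.15 to 0.019, the last without stage 6 embryo G) and msl-2 (-0.25 with the Sxl covariate, -0.018 without 5G and 6H, -0.14 to 0.34 with 1 embryo left out, and below 0 without stage 6 embryo B, D or H). Causes were not tested. Calls were lost not only with embryos left out. Without a count filter cas, osk and mof lost theirs (-0.81, -0.91 and -0.65). With the title letter as a block cas, vls, para and mof did (-0.73, 0.34, -0.93 and -0.66). List counts moved over 1.5 times in 43 of 1380 repeats, all in lists with counts of at most 2. With stage 4 thresholds of 5 and 0.5 CPM, 50.7% of risers were present and 43.2% absent, and 75.1% and 15.6% of fallers. Wnt6 changed by -3.63 in edgeR and -2.66 in DESeq2. About 4 reads per CPM in most libraries limit genes near 1 CPM, and levels relative to total RNA cannot show a change common to all genes.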
